A study of Mus musculus with 6 samples.

Results

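The 9 genes described here encode subunits of the Polycomb complexes and were chosen by symbol: Cbx8, Cbx7, Cbx2, Ring1, Rnf2, Bmi1, Bcor, Ezh2 and Ezh1. They are 9 of the 55487 genes in the deposited table. All 9 reached the mean value of 3 that a gene needed to enter the test, as did 18766 genes in all. The 6 libraries of total RNA came from Kit+ cells of mouse bone marrow, Kit being the receptor that marks blood stem and progenitor cells. An overexpressing lentivirus had brought in wild type MLLT3 in 3 cultures (WT) and MLLT3 with K63E and K67E in the other 3 (DM). After sorting, both groups spent 8 days in methylcellulose medium that held 10 ng/mL Flt3L, EPO, SCF, GM-CSF, IL-3, IL-6 and IL-11 among the cytokines at 20 ng/mL each, and 200 nM 4-hydroxytamoxifen. The drug was there to delete the endogenous Mllt3 gene, so every library carries that treatment as well as a virus, and no group without either was compared. The labels do not name the recombinase, the strain, the age of the mice, or whether the replicates came from separate animals. The p-values therefore measure only the spread between these samples, which may be technical.

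Polycomb proteins keep developmental genes silent. Polycomb repressive complex 1 (PRC1) joins a RING1 protein with a PCGF protein and attaches ubiquitin to histone H2A, and in its canonical form a CBX subunit binds the methyl mark that complex 2 (PRC2) writes on histone H3. PRC2 writes that mark through EZH2, which is abundant in dividing cells, or through its paralog EZH1, which is also found in resting cells. In blood, BMI1 is known for sustaining the self-renewal of stem cells, and CBX7 and CBX8 for opposing parts in self-renewal and differentiation. CBX8 is also known as a direct partner of MLLT3 (AF9), through which it links PRC1 to the MLL fusion proteins of leukaemia, and BCOR is another partner of MLLT3.

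The values are regularized log (rlog) values, which are on the log2 scale, are normalized for library size and are drawn toward each gene's mean, so that differences of low genes are understated. They hold no counts, so the depth of the libraries is unknown. The median over the tested genes lay between 8.03 and 8.11 in the 6 libraries, and the labels put all of them in batch 1. Mllt3 itself, which the vector supplies, averaged 12.64 ± 0.216 (SD, n = 3) in the WT libraries, and 12.16 ± 0.249 in the DM libraries (difference -0.48, SE 0.137, limma adjusted p 0.0448). The call of Mllt3 was lost in 6 of 12 alternatives, with adjusted p up to 0.161, and these values do not separate vector from endogenous transcripts. In the limma fit 2611 of 18766 genes (13.9%) had an adjusted p under 0.05, of which 66.1% were higher in DM. After quantile normalization 14.1% were called, of which 51.3% were higher. Kit was present in every library, with means of 14.39 in WT and 14.6 in DM.

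Over the 9 members, the change from WT to DM was small and went in both directions. Bmi1 rose and Cbx7 fell, and the other 7 did not pass the threshold. A call was thus made for 22.2% of the members, beside 13.9% of all tested genes, where 9.2% were called higher and 4.71% lower. The groups did not overlap for 7 members, beside 35.8% of all tested genes. In 5 of these members DM was higher and in 2 lower, beside 21.5% and 14.3% of all tested genes. The median change was 0.18 on the log2 scale, beside 0.01 over all tested genes. The members ranged from -0.26 to 0.33, so no member changed by as much as 1 on the log2 scale. Among genes with a mean of at least 5, the median change was 0.06. After quantile normalization the 6 members with a higher mean in DM had changes from 0.01 to 0.24. The 3 with a lower mean then had changes from -0.28 to -0.14.

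**Figure D1:**
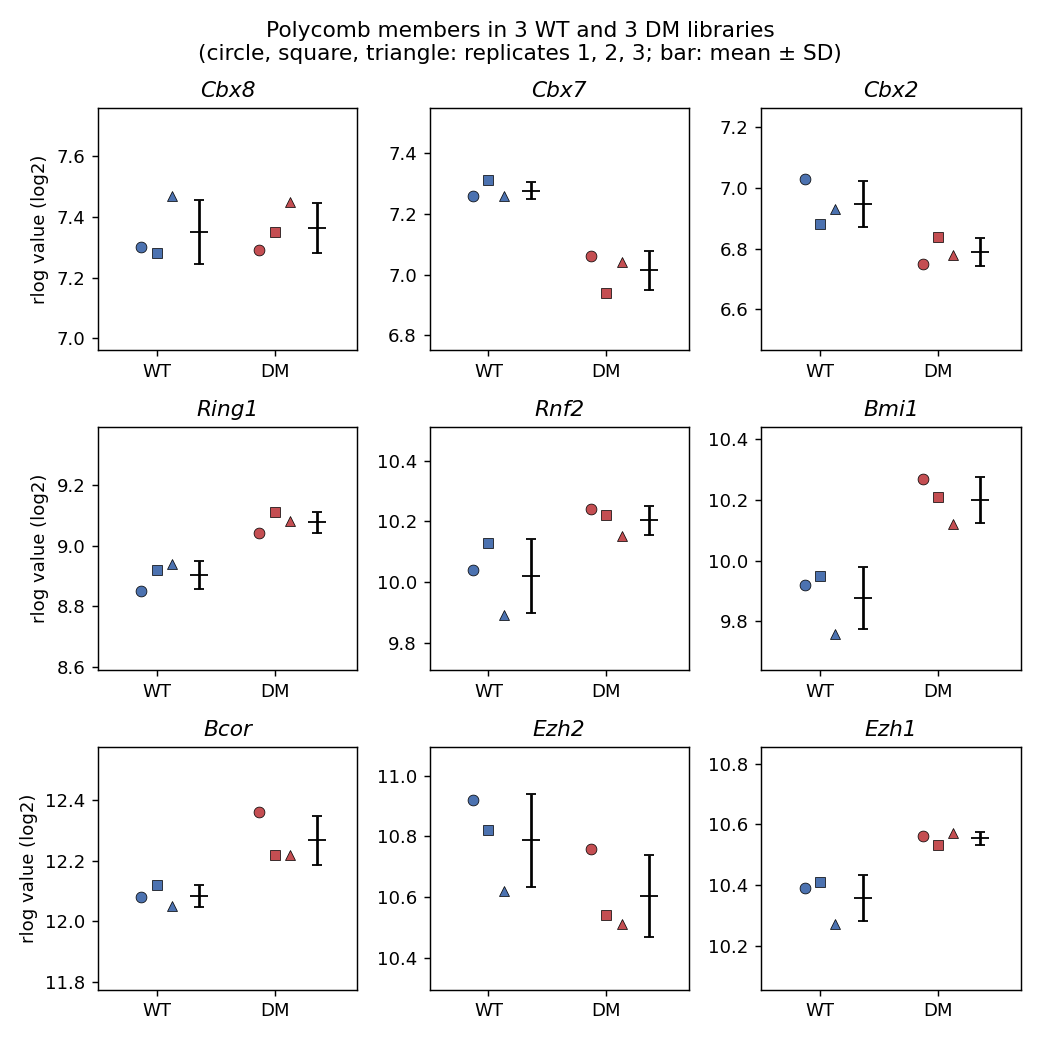
Rlog value (log2, y axis) of each member in the 3 WT and 3 DM libraries, with the mean and SD beside the points. Every panel spans the same height of the log2 scale. The groups overlap for Cbx8 and Ezh2, and for the other 7 genes all DM points lie on a single side of the WT points.

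The sequences upstream of a RefSeq transcript start are shown for Cbx8, the MLLT3 partner, and for Cbx7 and Bmi1, the members that passed the test. RefSeq promoter windows on GRCm38.p6 were found for 8 of the 9 members, and the stretches below leave out any base inside an annotated exon of the gene. That of Cbx7 lies inside the span that GENCODE gives this gene, since other annotated transcripts start further upstream. Capitals mark matches, on either strand, to the CCAAT box (CCAAT), the GC box (GGGCGG) and the E-box (CACGTG).
Cbx8 (chr11:119040970-119041163, minus strand): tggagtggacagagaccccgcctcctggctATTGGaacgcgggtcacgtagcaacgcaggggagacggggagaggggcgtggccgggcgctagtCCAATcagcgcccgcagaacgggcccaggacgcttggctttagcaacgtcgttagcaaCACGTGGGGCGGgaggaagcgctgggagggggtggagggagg
Cbx7 (chr15:79932769-79932896, minus strand): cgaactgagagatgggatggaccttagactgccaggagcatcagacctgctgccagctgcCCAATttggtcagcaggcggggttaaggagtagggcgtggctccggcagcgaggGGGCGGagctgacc
Bmi1 (chr2:18676768-18677017, plus strand): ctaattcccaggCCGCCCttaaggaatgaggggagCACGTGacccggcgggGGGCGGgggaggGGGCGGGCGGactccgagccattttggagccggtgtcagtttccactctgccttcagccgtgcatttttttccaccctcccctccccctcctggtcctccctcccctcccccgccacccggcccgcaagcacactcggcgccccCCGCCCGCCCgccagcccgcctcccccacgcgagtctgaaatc
The stretch of Bmi1 held 6 GC boxes, some of them overlapping, and no CCAAT box. That of Cbx8 held 2 CCAAT boxes and 1 GC box, and that of Cbx7 held 1 of each. An E-box was found upstream of Cbx8 and of Bmi1, where 4.14% and 6.02% of the 32851 promoter windows of the same length hold this motif. These matches describe the letters only, since the data measure RNA and not binding at these sites.

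Cbx8 (ENSMUSG00000025578.9) had rlog values of 7.3, 7.28 and 7.47 in the WT libraries 1 to 3, against 7.29, 7.35 and 7.45 in the DM libraries 1 to 3. Replicate 3 was the highest library of each group, and the groups lay over each other. The WT mean was 7.35 ± 0.107 and the DM mean 7.37 ± 0.0827 (SD, n = 3 each), which differ by 0.02 (SE 0.0802, limma adjusted p 0.913). The 95% interval of the change ran from -0.16 to 0.19, or from 0.893 to 1.14 as a ratio of DM to WT, so that changes beyond these bounds lie outside it on the rlog scale. The sign of this near-zero value turned in 4 of 12 alternatives.

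Cbx7 (ENSMUSG00000053411.16; chromosome 15, 79915807 to 79971119, minus strand) encodes another chromodomain subunit of canonical PRC1. It stood at 7.26, 7.31 and 7.26 in the WT libraries, against 7.06, 6.94 and 7.04 in the DM libraries, so that all DM libraries lay below all WT libraries. The change was -0.26 (SE 0.0679, limma adjusted p 0.031). The call is close to the threshold: it was lost when any of the 6 libraries was left out, with changes from -0.29 to -0.23 and adjusted p from 0.0559 to 0.118, and with no filter on the mean (0.0545). Apobec3, on the opposite strand, overlaps Cbx7 by 100 bases, and its means differed by -0.24 (adjusted p 0.0785). The use of strand in counting is not given in the sources used here.

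Cbx2 (ENSMUSG00000025577.7), which encodes the chromodomain subunit best known for compacting chromatin, stood at 7.03, 6.88 and 6.93 in the WT libraries, against 6.75, 6.84 and 6.78 in the DM libraries. The DM libraries were the lower ones without overlap, and the change was -0.15 (SE 0.0704, limma adjusted p 0.18).

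Cbx2 and Cbx8 stand side by side on chromosome 11, within 18 kb (119022962 to 119040969), with 5 kb between them and no other gene of the table in that span. Cbx2 is on the plus strand and Cbx8 on the minus strand. The neighbours had changes of -0.15 and 0.02, neither of which passed the test.

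Cbx7 minus Cbx8 was -0.04, 0.04 and -0.21 in the WT libraries, against -0.23, -0.41 and -0.41 in the DM libraries. The groups did not overlap, though WT replicate 3 and DM replicate 1 were close, and the difference between groups was -0.28 (two-sided exact permutation p 0.1, adjusted p 0.2 over 4 pairs). After quantile normalization this difference was -0.27 (two-sided exact permutation p 0.2, above the lowest possible value of 0.1). Cbx6, named after its values were seen, had a lower mean in DM by -0.3 (SE 0.09, limma adjusted p 0.0534). Npcd overlaps Cbx6 on the same strand over 10342 bases and was too low to be tested. Among Cbx2, Cbx6, Cbx7 and Cbx8, Cbx7 alone was called, and it was lower.

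Ring1 and Rnf2 encode the alternative ubiquitin ligase subunits of every PRC1. Ring1 (ENSMUSG00000024325.8; chromosome 17, 34020792 to 34024680, minus strand) stood at 8.85, 8.92 and 8.94 in the WT libraries, against 9.04, 9.11 and 9.08 in the DM libraries, which is a change of 0.18 (SE 0.0647, limma adjusted p 0.105). Rnf2 (ENSMUSG00000026484.13; chromosome 1, 151458004 to 151500955, minus strand) stood at 10.04, 10.13 and 9.89 in the WT libraries, against 10.24, 10.22 and 10.15 in the DM libraries, which is a change of 0.18 (SE 0.077, adjusted p 0.156). The DM libraries of both genes were the higher ones without overlap, but neither gene passed the threshold in any of 12 alternatives. For Rnf2 the lowest DM value lay only just above the highest WT value. After quantile normalization the change of Ring1 was 0.12 and that of Rnf2 was 0.1, and without WT replicate 3 that of Rnf2 was 0.11. Ring1 minus Rnf2 ranged from -1.21 to -0.95 in WT and from -1.19 to -1.06 in DM, and the means differed by 0 (two-sided exact permutation p 0.9). A gene of the annotation class TEC on the same strand, Gm36527, lies within Rnf2 over 3029 bases and had a change of -0.03. Trmt1l, on the opposite strand, overlaps Rnf2 by 158 bases and had a change of 0.14 (limma adjusted p 0.228).

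Bmi1 (ENSMUSG00000026739.13; chromosome 2, 18677018 to 18686629, plus strand), the PCGF subunit tied to self-renewal of blood stem cells, had the largest change of the 9 members. It stood at 9.92, 9.95 and 9.76 in the WT libraries, against 10.27, 10.21 and 10.12 in the DM libraries. Replicate 3 was the lowest library of each group, and the lowest DM value lay above the highest WT value. The mean went from 9.88 ± 0.102 (SD, n = 3) to 10.2 ± 0.0762, a change of 0.33 (SE 0.0758, limma adjusted p 0.0205; 95% interval 0.16 to 0.49). Leaving out WT replicate 1 ended the call (0.35, adjusted p 0.0559), as did leaving out DM replicate 1 (0.29, 0.071) or DM replicate 2 (0.32, 0.0757) and dropping the filter on the mean (0.051). The call was kept in the other 8 alternatives. Pcgf2, its close paralog, changed by 0.1 (SE 0.0809, adjusted p 0.415). Pcgf2 minus Bmi1 was -1.72, -1.6 and -1.5 in the WT libraries, against -1.89, -1.96 and -1.63 in the DM libraries, and these groups overlapped (two-sided exact permutation p 0.2, adjusted p 0.267 over 4 pairs).

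Bcor (ENSMUSG00000040363.15; chromosome X, 12036740 to 12160355, minus strand) encodes a subunit of the variant PRC1 that KDM2B brings to unmethylated CpG islands. It stood at 12.08, 12.12 and 12.05 in the WT libraries, against 12.36, 12.22 and 12.22 in the DM libraries, without overlap. The change was 0.18 (SE 0.0711, limma adjusted p 0.124), and DM replicate 1 stood above the other DM libraries. It was 0.07 after quantile normalization (adjusted p 0.485). Of the partners in that complex, Kdm2b changed by -0.16 (limma adjusted p 0.158) and Pcgf1 by 0.13 (0.293), while Ring1 and Rnf2 each changed by 0.18. Rybp and Usp7, also genes of variant PRC1, changed by -0.1 (0.387) and 0 (0.976). The paralog Bcorl1 changed by -0.12 (0.271). None of these genes passed the threshold.

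Ezh2 (ENSMUSG00000029687.16; chromosome 6, 47530139 to 47595341, minus strand) stood at 10.92, 10.82 and 10.62 in the WT libraries, against 10.76, 10.54 and 10.51 in the DM libraries. DM replicate 1 lay above WT replicate 3, so the groups overlapped, and the change was -0.19 (SE 0.0966, limma adjusted p 0.226). It was -0.28 after quantile normalization (adjusted p 0.054) and -0.12 without WT replicate 1 (0.505). Ezh1 (ENSMUSG00000006920.14; chromosome 11, 101191115 to 101226463, minus strand) stood at 10.39, 10.41 and 10.27 in the WT libraries, against 10.56, 10.53 and 10.57 in the DM libraries. Its DM libraries were all above its WT libraries, and the change was 0.2 (SE 0.0662, adjusted p 0.0791), or 0.11 after quantile normalization (0.163).

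Within each library, Ezh1 minus Ezh2 was -0.53, -0.41 and -0.35 in the WT libraries, against -0.19, -0.01 and 0.07 in the DM libraries. Ezh1 was thus higher relative to Ezh2 in all DM libraries than in any WT library. The mean went from -0.43 ± 0.0942 (SD, n = 3) to -0.05 ± 0.133, a change of 0.38 (two-sided exact permutation p 0.1, the lowest possible here, and adjusted p 0.2 over 4 pairs). The change was between 0.33 and 0.46 when any of the 6 libraries was left out, and 0.39 after quantile normalization.

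**Figure D2:**
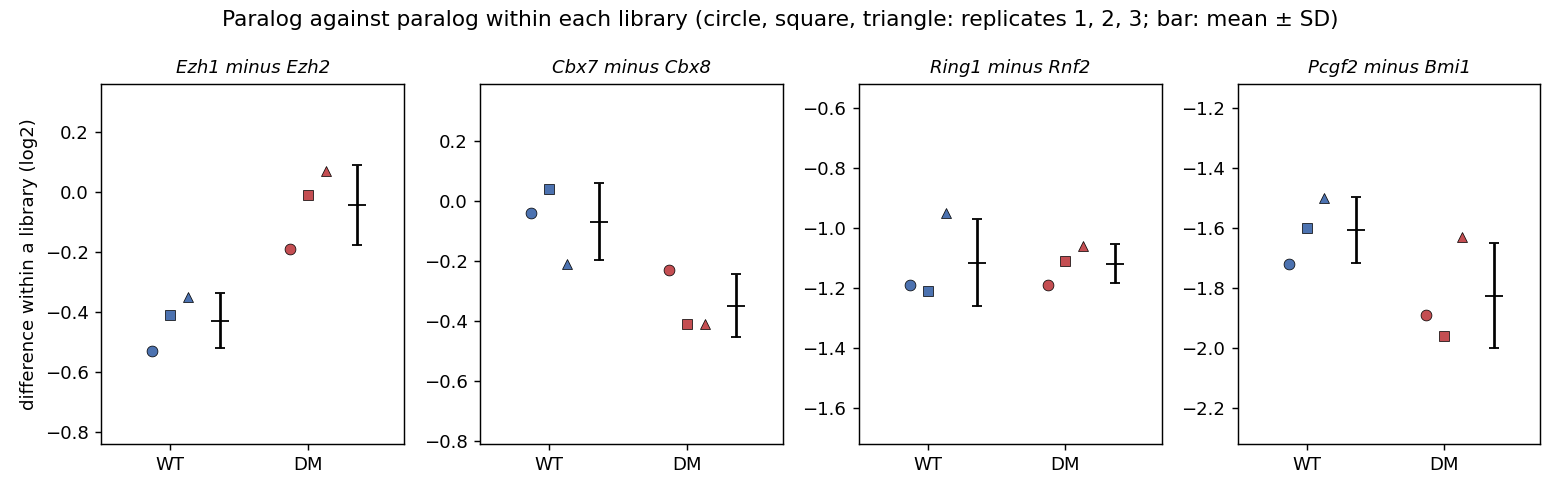
Rlog value of a gene minus that of its paralog within each library (log2, y axis) for 4 pairs in WT and DM, with mean and SD. Ezh1 minus Ezh2 is higher in every DM library, Cbx7 minus Cbx8 is lower in every DM library, and the groups overlap for Ring1 minus Rnf2 and for Pcgf2 minus Bmi1.

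Levels of different genes were set side by side only after the log2 of the exonic length in kb had been taken from the mean rlog value over the 6 libraries. On this per-kb scale Bcor was highest at 9.06, followed by Rnf2 at 8.07, Bmi1 at 8.05, Ezh2 at 7.95, Ezh1 at 7.56 and Ring1 at 7.29. The CBX members were the lowest, with Cbx8 at 5.48, Cbx2 at 4.78 and Cbx7 at 4.45. Rnf2, Bmi1 and Ezh2 are within the SD of Ezh2 in WT (0.154) of each other and have no order beyond that spread. The exonic length counts every annotated exon and so understates genes with many rarely used exons.

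The genes whose pattern over the 6 libraries was most like that of Cbx8 and of Bmi1 were sought among 18731 tested genes with a unique symbol, by the root mean square difference of values centred on each gene's mean. The nearest to Bmi1 were Glipr1 (0.014), Pepd (0.0156) and Atp6v1h (0.0186), in log2 units, and each had a change of 0.32. The nearest to Cbx8 were Nme2 (0.0199), Retn (0.0214) and Acsbg3 (0.0215), with changes from -0.01 to 0.02. They lay between 3.46 and 4.89, well below Cbx8, and rlog values understate the differences of low genes. With 6 libraries, near patterns of this kind are descriptions of these libraries.

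The wider Polycomb machinery was read in 4 lists with 51 genes in all, the 9 members among them, and all 51 were tested. Called genes numbered 7 (13.7%), 2 higher and 5 lower in DM, a share close to the 13.9% of all tested genes. The median change was 0.02, beside 0.01 over all tested genes. Without the 9 members, 5 of 42 genes were called (11.9%). After quantile normalization the total was 12, with 1 higher and 11 lower. Of all tested genes 14.1% were then called, and 51.3% of those were higher. The total of the 4 lists fell to 3 when WT replicate 1 was left out. It was 3, 2 and 4 when DM replicates 1, 2 and 3 were left out in turn. In these fits the calls over all tested genes fell as well, from 2611 to 1185, 1860, 1119 and 1537.

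Canonical PRC1 had 3 of 13 genes called: Bmi1 and Phc2 higher, Cbx7 lower. Phc2 encodes a Polyhomeotic protein whose SAM domain polymerises and clusters PRC1. It went from 10.78 ± 0.0562 (SD, n = 3) to 11.03 ± 0.0548, a change of 0.25 (SE 0.0664, limma adjusted p 0.035), and 7 of 12 alternatives ended its call, such as quantile normalization (0.14, 0.109). Variant PRC1 had 1 of 16 genes called, Pcgf5, whose product forms a PRC1 that lacks CBX subunits. Pcgf5 stood at 9.83, 9.8 and 9.51 in the WT libraries, against 9.28, 9.2 and 9.25 in the DM libraries, which is a change of -0.47 (SE 0.0889, adjusted p 0.00943), and was called in all 12 alternatives. The processed pseudogene Gm9042, on the same strand within Pcgf5 over 1664 bases, had a lower mean by -0.17 (adjusted p 0.028).

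PRC2 had 2 of 13 genes called, both lower. The number called lower was 5 after quantile normalization, with none higher. At a mean of at least 5, where 3018 of 13448 genes were called, it was 3, with 1 higher. Jarid2 encodes an accessory subunit that helps to bring PRC2 to its sites. It stood at 10.88, 10.91 and 10.8 in the WT libraries, against 10.4, 10.33 and 10.54 in the DM libraries, which is a change of -0.44 (SE 0.0736, limma adjusted p 0.00629), called in all 12 alternatives. Suz12, a core subunit that PRC2 needs for its stability, changed by -0.27 (SE 0.0724, adjusted p 0.035). It lost its call in 5 of 12 alternatives: without WT replicate 1, WT replicate 2, DM replicate 2 or DM replicate 3 (adjusted p 0.0578 to 0.152), and with no filter on the mean (0.0918). Eed, the core subunit that reads the methyl mark, changed by 0.09 (adjusted p 0.384). The list of the H2A deubiquitinase and of the demethylases of H3K27 had 1 of 9 genes called, Kdm6b, an inducible demethylase, at -0.32 (SE 0.0783, adjusted p 0.0235). Kdm6b lost its call when WT replicate 3, DM replicate 1 or DM replicate 2 was left out (adjusted p 0.0503 to 0.111), and an antisense gene, Kdm6bos, overlaps it.

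**Figure D3:**
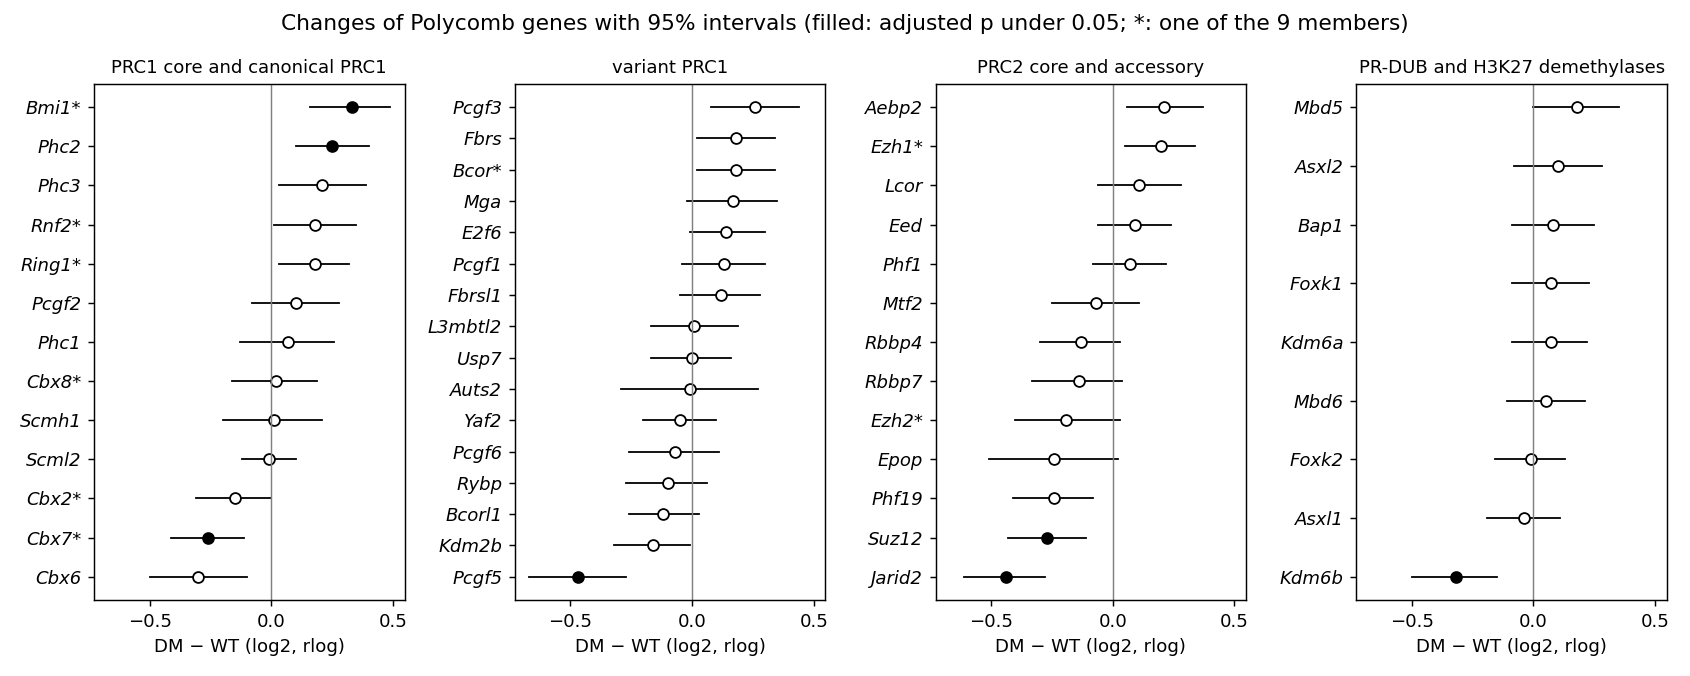
Change from WT to DM (log2, x axis) of 51 Polycomb genes in 4 lists, with 95% intervals; filled points have an adjusted p under 0.05, and stars mark the 9 members. The filled points are Bmi1 and Phc2 on the right of 0 and Cbx7, Pcgf5, Jarid2, Suz12 and Kdm6b on the left.

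Of 16 genes listed as known to be repressed by Polycomb, HoxA genes left out, 9 were high enough to be tested, while the other 7, Lin28b and 6 Hoxc and Hoxd genes, lay between 0.58 and 2.49 in every library. Called were 2 of the 9 (22.2%, beside 13.9% of all tested genes), Cdkn1c higher and Igf2bp3 lower. The median change of the 9 was -0.09, and 3 had a higher and 6 a lower mean in DM. Wt1, Ebf1, Pax5 and Hmga2 were low, with WT means of 3.1, 3.3, 4.18 and 4.93, and rlog values understate the differences of low genes. Cdkn1c, which encodes the cell cycle inhibitor p57, stood at 7.6, 7.91 and 7.31 in the WT libraries, against 8.19, 8.18 and 8.08 in the DM libraries, which is a change of 0.54 (SE 0.129, limma adjusted p 0.0221). Its call was lost without WT replicate 1, DM replicate 1, DM replicate 2 or DM replicate 3 (adjusted p 0.0524 to 0.0692). Igf2bp3, an RNA-binding protein gene of fetal blood cells, changed by -0.33 (SE 0.0971, adjusted p 0.0499) and lost its call in 7 of 12 alternatives. Cdkn2a, the locus best known as a target of BMI1, averaged 8.69 ± 0.155 in WT libraries and 8.85 ± 0.152 in DM libraries (SD, n = 3 each), and the groups overlapped (change 0.16, SE 0.101, adjusted p 0.321).

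These cultures hold several cell types, and in bulk RNA fewer cells of a type and less RNA per cell cannot be told apart. Markers of the neutrophil lineage, from primary granule genes to genes of later stages, had 13 of 16 genes called lower in DM, with summed levels, as log2 of the sum of linear values, of 18.63 to 19.07 in WT and 17.32 to 18.14 in DM. The largest parts of the sum are S100a8 and S100a9, with changes of -1 and -1.27. Of the primary granule genes, Mpo, Elane and Prtn3 had changes of -4.23, -3.96 and -3.37, but Ctsg only -0.63. Lcn2, Mmp8 and Mmp9 were not called, with changes of -0.45, 0.5 and -0.21. Markers of monocytes and macrophages had 9 of 14 tested genes called higher and 2 lower, with summed levels of 18.29 to 18.97 in WT and 19.27 to 19.63 in DM. The lower genes are Ccr2 (-0.78) and Ly6c2 (-1.13), known from inflammatory monocytes, and the sum is carried mainly by Lyz2 (0.86) and Gpnmb (0.96). The proliferation and E2F target list had 17 of 20 genes called lower, with a median change of -0.42 and summed levels of 16.54 to 16.7 in WT and 16.17 to 16.35 in DM. Ezh2, a gene of dividing cells, had -0.19 beside that median. Progenitor markers, at 16.04 to 16.24 in WT and 15.96 to 16.4 in DM, overlapped between the groups, with 3 of 10 genes called. These are Myb (-0.65) and Flt3 (-0.3), both lower, and Mecom (0.52), higher. The largest parts of the progenitor sum are Kit and Gata2, and Gata2 is on the mast cell and basophil list as well. Mast cell and basophil markers, at 18.79 to 19.15 in WT and 18.8 to 19.27 in DM, also overlapped, with 1 of 8 genes called. The largest parts of that sum are Cpa3 (0.24), Tpsb2 (-0.18) and Cma1 (0.07). The called gene is Hdc (-0.62), and Mcpt8 had -0.54 without a call. Of the 8 genes, 4 had a higher and 4 a lower mean in DM. The megakaryocyte list had 2 of 6 genes called, both higher, the lymphoid list 3 of 6 tested, 1 of them higher, and the erythroid list none of 7. The T cell gene Cd3e and the globin gene Hba-a1 were under the mean of 3 needed for testing. The part of these shifts in the changes of Bmi1, Cbx7 and the other Polycomb genes was not tested.

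**Figure D4:**
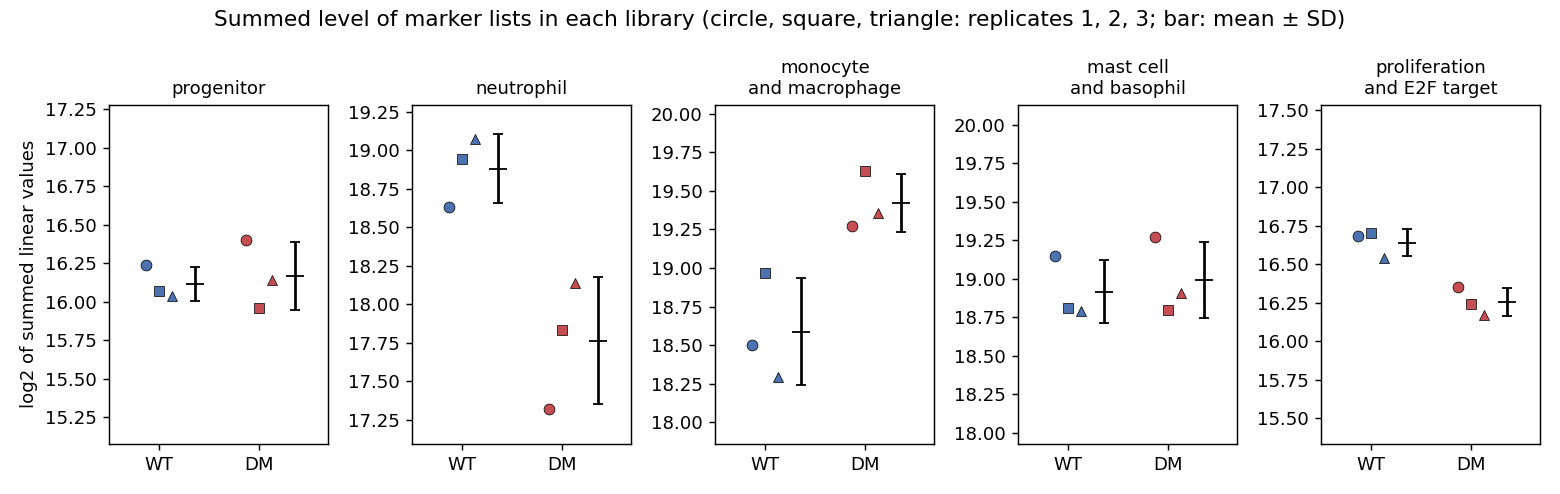
Log2 of the summed linear values of 5 marker lists (y axis) in each WT and DM library, with mean and SD; every panel spans the same height. The neutrophil and the proliferation sums are lower, and the monocyte and macrophage sums higher, in all DM libraries, while the progenitor and mast cell sums overlap.

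**Figure D5:**
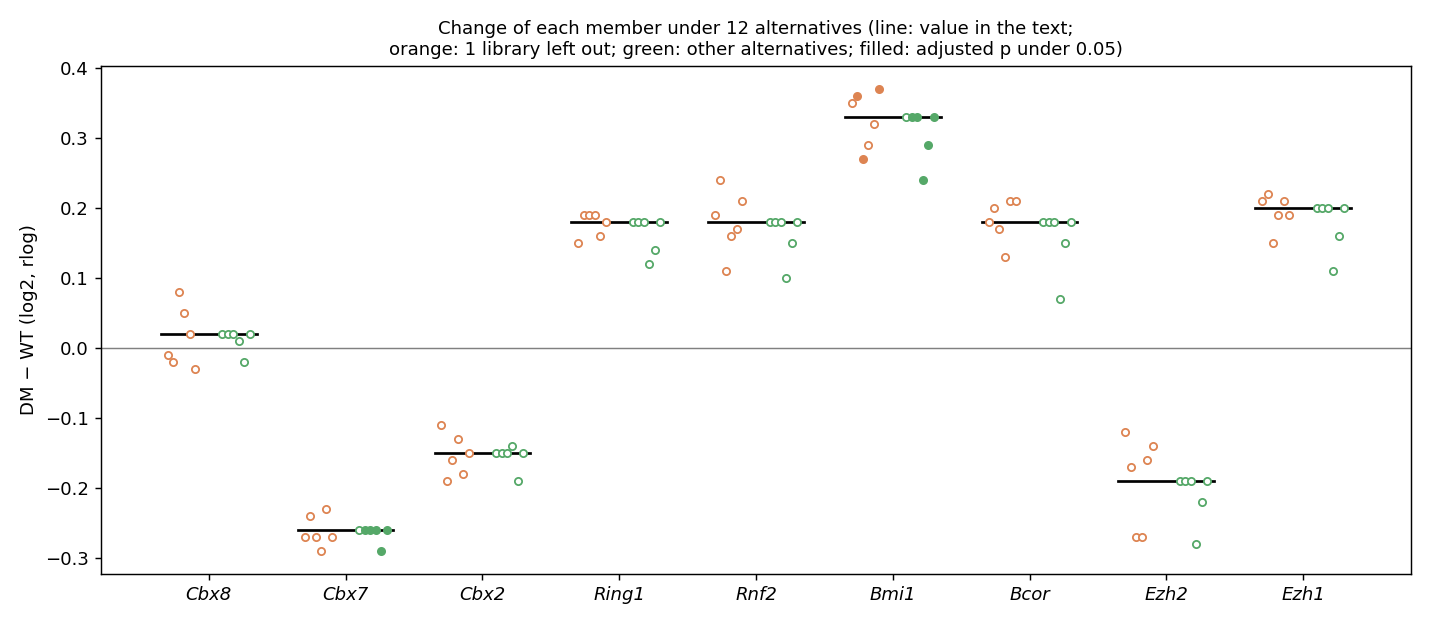
Change from WT to DM (log2, y axis) of each member: the line is the value in the text, orange points leave out 1 library, green points are the 6 other alternatives, and filled points have an adjusted p under 0.05. Cbx7 loses its call whenever a library is left out, Bmi1 keeps its call in 8 of 12 alternatives, and the other 7 members are called in none of the 12.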

How the data were processed

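RNA from 6 libraries, 3 WT and 3 DM, was measured. The authors deposited rlog values on the log2 scale, as read from the table's name and its values (-1.97 to 21.88, not whole). Per the submitters' processing notes, cutadapt 2.6, STAR 2.7.3, DESeq2 1.30.0 and build mm10 were used. The counting tool, the use of strand and the annotation are not given in the sources used here. Its 142699 lines repeat a gene for each of its transcripts and were reduced to 55487 genes. Gene identifiers of 98.1% matched GENCODE M21 on GRCm38 (mm10), which gave coordinates and exonic lengths. DM was compared with WT by limma 3.58.1 in R 4.3.3 (lmFit, eBayes with a mean-variance trend, prior degrees of freedom 5.82), without covariates, over 18766 genes with a mean of at least 3. Adjusted p is by Benjamini-Hochberg over all of them, with a threshold of 0.05. On simulated data, 152 of 200 changed genes and 8 unchanged genes were called. The planted changes were of several sizes, most of them larger than any change of the members. The share called therefore does not give the power for changes as small as those.

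Named were the 9 members, up to 5 called genes per list with the largest changes, the 3 genes most like Cbx8 and Bmi1, and Mllt3. Any other gene named belongs to a complex or marker list, overlaps a named gene, or is marked as picked after its values were known. The members and lists were chosen with earlier results of these data known. The 12 alternatives were no filter, a mean of at least 5, no trend, quantile normalization, median centring, a replicate block, and each of 6 libraries left out. Precision is limited by 3 libraries per group, and the depth is unknown. Some listed items are left out of the lists and counts and are not reported here.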

Additional observations from a re-analysis of the deposited data

How the results depend on the processing

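Calls near the threshold depended on single libraries. The number of called genes among all tested ran from 1119 (without DM replicate 2) to 3475 (without WT replicate 2) with 1 library left out. It was 1185 without WT replicate 1 and 1537 without DM replicate 3. In the same fits, called members numbered 0 to 1, called genes of the 4 wider lists 2 to 8, and called Polycomb-repressed genes 0 to 2. Where an arm was left with 2 libraries, the spread was pooled over both groups. With no filter on the mean, limma called 1799 of 47934 genes, against 2611 of 18766 in the main fit. No member was then called (0, against 2), 3 genes of the wider lists were called, and 1 Polycomb-repressed gene was called. That last number was also 1 without the mean-variance trend. Quantile normalization gave 12 called genes in the wider lists, against 7, beside 14.1% of all tested genes. A mean of at least 5 gave 11, where 3018 of 13448 genes were called.

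With the replicate number as a block, 13 genes of the wider lists and 3742 of all genes were called, and the 2 called members stayed at 2. The correlations of deviations between same-numbered libraries were 0.49, 0.12 and 0.04. WT replicates 1 and 2 matched the DM library of the same number best, while WT replicate 3 matched DM replicate 2 best. The numbers were not taken to pair the libraries in the main fit. The paralog differences tested by pairs cannot give an exact permutation p under 0.25.

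The sign of the change of Cbx8 turned after median centring (-0.02), and without WT replicate 1 (-0.01), WT replicate 2 (-0.02) or DM replicate 3 (-0.03), in a range of -0.03 to 0.08 over the libraries left out. Ring1 minus Rnf2 differed between the groups by 0.02 after quantile normalization and by -0.05 to 0.08 with 1 library left out, against 0. The other 3 paralog differences kept their direction in every alternative run on them: 0.33 to 0.46 for Ezh1 minus Ezh2, -0.35 to -0.22 for Cbx7 minus Cbx8 and -0.32 to -0.15 for Pcgf2 minus Bmi1. The cause of these differences was not tested.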
